A study of Mus musculus with 8 samples.

Results

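Transcripts of 36 genes of glucose, fructose and glycogen metabolism were followed in Pemt-/- and Pemt+/+ mouse liver over 4 weeks of a diet rich in fat and sucrose (HFHS, high fat-high sucrose). The genes were chosen by name for their place in the pathway, with earlier results of these data known. Every probe set annotated to 1 of them alone was used. A probe set is a group of short probes on an Affymetrix expression array that together read the transcripts of a gene. Of the 36 genes, 33 had such a probe set, among 18193 genes on the array, and they held 71 probe sets. Gpi1, Pfkfb1 and Eno1 are not analysed here. The Pemt-/- mice lack phosphatidylethanolamine N-methyltransferase throughout the body, Pemt+/+ mice carry the intact gene, and both genotypes were male and received the same diet. There were 8 arrays, with 1 array per genotype at each of weeks 1, 2, 3 and 4, so a genotype had 4 arrays that came from different weeks. The age of the mice at the start of the diet, and whether an array held RNA of 1 mouse or of several, are not stated in the sources used here. The methods name 4 mice per genotype for the samples of these weeks, and do not say how they were assigned to arrays. The p-values measure only the spread between these arrays. The Pemt probe set measured 237, 203, 201 and 255 in Pemt-/- from week 1 to week 4 and 5491, 4989, 5645 and 6045 in Pemt+/+, so the targeted gene went with the labels on all 8 arrays. The knockout had 23.2-fold less of it (adjusted p = 5.00e-07, limma).

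The liver takes up glucose and fructose after a meal, phosphorylates them, and stores glucose as glycogen or breaks it down to pyruvate by glycolysis. During fasting it releases glucose from glycogen and makes new glucose from lactate, amino acids and glycerol by gluconeogenesis. Several steps have a form typical of hepatocytes and a form found in many other cells, as with the pyruvate kinases encoded by Pklr and Pkm, and insulin acts through its receptor, the Irs proteins, Akt and Foxo1 to favour storage over release.

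Promoters of 4 of these genes are shown, each with 1 of the short motifs searched and all of genes lower in the knockout. The 250 bases before each transcription start were taken from RefSeq (GRCm38.p6), in which 33 of the 36 genes matched with 52 starts, and Ppp1r3b, Insr and Gys2 did not match. Each sequence reads 5′ to 3′ on the strand of its gene, and the capitals mark the motif. Khk is at chr5:30921309-30921558 on the plus strand, Pklr at chr3:89136373-89136622 on the plus strand, Pck1 at chr2:173152823-173153072 on the plus strand and Ppp1r3c at chr19:36736605-36736854 on the minus strand.
Khk: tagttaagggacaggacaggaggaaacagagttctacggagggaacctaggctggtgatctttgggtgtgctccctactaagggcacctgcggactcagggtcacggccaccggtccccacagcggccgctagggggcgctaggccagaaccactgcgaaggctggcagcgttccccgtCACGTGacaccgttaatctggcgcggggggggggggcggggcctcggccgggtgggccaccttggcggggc
Pklr: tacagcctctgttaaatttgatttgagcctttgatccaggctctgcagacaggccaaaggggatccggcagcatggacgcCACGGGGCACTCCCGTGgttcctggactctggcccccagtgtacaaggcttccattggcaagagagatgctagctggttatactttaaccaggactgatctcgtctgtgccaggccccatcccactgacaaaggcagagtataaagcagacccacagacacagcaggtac
Pck1: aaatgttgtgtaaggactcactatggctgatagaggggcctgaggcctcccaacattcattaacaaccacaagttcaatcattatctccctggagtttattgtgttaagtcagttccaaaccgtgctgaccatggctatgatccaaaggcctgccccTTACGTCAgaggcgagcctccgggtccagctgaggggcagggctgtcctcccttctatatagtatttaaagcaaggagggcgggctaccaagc
Ppp1r3c: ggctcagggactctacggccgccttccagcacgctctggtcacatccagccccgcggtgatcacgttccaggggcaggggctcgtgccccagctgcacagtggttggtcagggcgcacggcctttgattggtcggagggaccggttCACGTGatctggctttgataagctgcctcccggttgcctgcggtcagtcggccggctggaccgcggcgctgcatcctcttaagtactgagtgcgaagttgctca
The motifs were searched on both strands. The E-box CACGTG, bound by basic helix-loop-helix factors, was in the window of 6 of the 52 starts (Irs1, Irs2, Khk, Ldha, Pcx and Ppp1r3c) and of 6.02% of all 32851 starts of the table. The carbohydrate response element form, CACGNG and CNCGTG with any 5 bases between them, in which either end can itself be an E-box, was in 1 member window, that of Pklr, the gene in which this element is best known, and in 0.0396% of all starts. The cAMP response element form TNACGTCA was in the windows of Ldha and Pck1 and in 2.52% of all starts. The forkhead motif TGTTTAC was found for Akt1 alone among the members (3.17% of all starts). The HNF1 form, GTTAAT and ATTAAC with any 1 base between them (0.00913% of all starts), and the HNF4 form CAAAGTCCA (0.384%) were in 0 of the 52 windows. These matches describe the letters only. The 6 genes with an E-box held genes that were lower in the knockout (Khk, Pcx and Ppp1r3c) and genes that did not pass the test (Irs1, Irs2 and Ldha).

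The first question was which of these genes differed between the genotypes over the 4 weeks. By the lead probe sets, 4 of 6 genes of gluconeogenesis and glucose release (Pck1, Pcx, Fbp1 and Slc37a4) and 3 of 6 glycogen genes (Ppp1r3b, Ppp1r3c and Pygl) were lower in the knockout, as were Slc2a2 and Khk of sugar entry, Pklr and Pgk1 of glycolysis, and Insr and Foxo1. Higher were Hk1, Pfkp, Aldoa and Pkm, the glycogen branching enzyme gene Gbe1, and Akt1. The largest fall was that of Ppp1r3b, which brings protein phosphatase 1 to glycogen, at 2.63-fold, and the largest rise was that of Pkm, the pyruvate kinase of muscle and most non-hepatic cells, at 2.44-fold. Each gene was read first through its lead probe set, the one with the highest mean over the 8 arrays, and differences were fitted as log2(intensity + 16) of Pemt-/- minus Pemt+/+ with the week in the model. Of the 33 genes, 6 were higher (18.2%) and 13 were lower (39.4%) at an adjusted p under 0.05 (limma, adjusted over 27022 probe sets), and 14 did not pass. Over the lead probe sets of all 12949 genes tested, 12.6% were higher and 7.51% were lower. The median difference was -0.18 on the log2 scale for the 33 genes and 0.02 for all genes tested, with 19 members below 0 and 14 above. Of all calls over the array, 63.8% were higher in the knockout, and 37.6% were higher when each array was centred on the median of the probe sets tested, a setting that moved the median of all probe sets to -0.14 and that of the members to -0.34. In that setting 4 members were higher and 15 lower. Other settings gave fewer calls, with 4 higher and 6 lower after quantile normalization, 6 and 7 with median centring over all probe sets, 6 and 8 without the filter on dim probe sets, and 3 and 2 by eBayes without trend. Leaving out week 1 gave 3 higher and 4 lower, week 2 gave 5 and 15, week 3 gave 3 and 5, and week 4 gave 4 and 3.

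**Figure D1:**
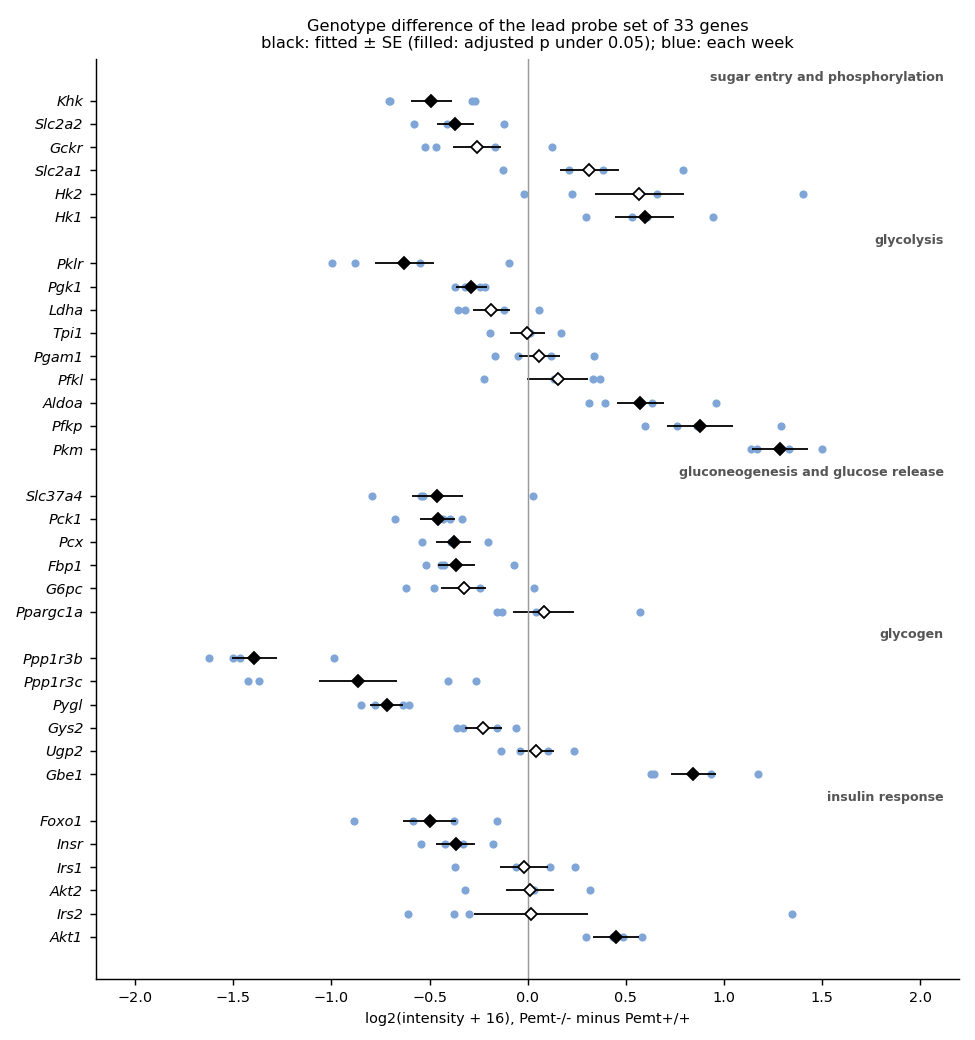
Difference between genotypes, in log2(intensity + 16) of Pemt-/- minus Pemt+/+, for the lead probe set of each of the 33 genes, grouped by role. Black diamonds with bars are the fitted difference ± SE (filled where the adjusted p is under 0.05) and blue points are the differences in each of the 4 weeks. The filled diamonds of gluconeogenesis and glucose release lie below 0, and those of Pkm, Pfkp and Gbe1 lie above 0.5.

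Over single probe sets, 67 of the 71 passed the filter on dim probe sets, and the other 4 (1 each of Hk1, Pfkp, Akt1 and Foxo1) were not tested. Of the 67, 9 were higher (13.4%) and 16 were lower (23.9%), against 10.3% higher and 5.86% lower among all probe sets tested. These 25 belonged to 20 genes, 7 with a higher and 13 with a lower probe set, and 24 of the 25 kept their sign in each of the 4 weeks. The exception was Slc37a4, whose week 3 values were 4955 in Pemt-/- and 4860 in Pemt+/+. The ranges of the genotypes did not overlap for 21 of the 67 probe sets (31.3%, 7 higher and 14 lower), against 21.8% of all probe sets tested.

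Markers of other cells moved with the genotype as well. In Pemt-/-, 10 of 12 hepatocyte markers measured were lower (median difference -0.42), with a summed intensity of 303400 to 382100 against 419600 to 450900 in Pemt+/+. Macrophage markers were higher for 11 of 13 (median 1.96, summed 28340 to 39010 against 11770 to 17340), stellate cell and fibroblast markers for 11 of 11 (median 1.62, summed 42450 to 63320 against 15000 to 20920), and proliferation markers for 7 of 7 (median 2.66, summed 8813 to 19430 against 1170 to 2379). Cholangiocyte markers were higher for 2 of 6 (median 0.53, summed 1042 to 1956 against 569.5 to 939) and sinusoidal endothelium markers lower for 3 of 7 (median 0.03, summed 4030 to 8236 against 6290 to 9248). Alas2, the 1 red blood cell gene tested, was lower, and 0 of 2 lymphocyte markers passed. No marker measured was at 0 on any array. The part of these cell types in the differences of the metabolic genes was not tested, and in whole liver fewer cells of a type cannot be told apart from less RNA per cell.

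Sugar entry and phosphorylation was split. The carrier and the kinase typical of hepatocytes, Slc2a2 and Khk, were lower in the knockout. Slc2a1 and Hk1, the carrier and the hexokinase of most cells, had a higher probe set, which for Slc2a1 was not the lead one. Of the 6 genes, 1 was higher and 2 were lower by the lead probe set, with a median difference of 0.03. For all genes tested the shares were 12.6% higher and 7.51% lower. Slc2a2 encodes GLUT2, the main glucose carrier of hepatocytes. Its intensity (1449067_at) was 12541, 13552, 12263 and 10045 in Pemt-/- from week 1 to week 4 and 16161, 14720, 16297 and 15013 in Pemt+/+. Every knockout array lay below every wild-type array, and the difference was -0.37 ± 0.10 (SE), 1.29-fold lower (adjusted p = 0.0328, limma). Khk encodes ketohexokinase, which phosphorylates fructose, the other sugar of sucrose. It measured 12268, 18029, 16008 and 12672 in Pemt-/- and 19941, 21986, 19326 and 20701 in Pemt+/+ (1449062_at). The groups did not overlap, with the narrowest gap between week 2 of the knockout and week 3 of the wild type, and Khk was 1.41-fold lower (-0.49 ± 0.11, adjusted p = 0.0158, limma).

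Hk1, the hexokinase of many tissues, measured 447, 438, 361 and 403 in Pemt-/- and 224, 298, 231 and 325 in Pemt+/+ (1437974_a_at). The knockout arrays were all above the wild-type arrays, by 1.51-fold (0.60 ± 0.15, adjusted p = 0.0279, limma). Slc2a1 encodes GLUT1, the glucose carrier of most cells. Its lead probe set did not pass (1434773_a_at, 0.31 ± 0.15, adjusted p = 0.196, limma), and a second one did (1426599_a_at), at 611, 499, 785 and 873 in Pemt-/- and 379, 356, 378 and 438 in Pemt+/+. On this second probe set the groups were separate, with the higher knockout values in weeks 3 and 4, and the difference was 1.72-fold (0.78 ± 0.14, adjusted p = 0.00702, limma). The third probe set of Slc2a1 did not pass (0.11 ± 0.14). Hk2, the insulin-regulated hexokinase of muscle and fat, ranged from 229.8 to 391 in Pemt-/- and from 135 to 397 in Pemt+/+ and did not pass (0.57 ± 0.23, adjusted p = 0.128, limma). Gckr, a regulatory protein of sugar phosphorylation in hepatocytes, did not pass either (-0.26 ± 0.12, adjusted p = 0.192, limma), and without week 2 it did (-0.39, adjusted p = 0.0462, with 0.0462 to 0.534 over its 16 alternatives). For Slc2a2 the adjusted p was 0.0949, 0.156 and 0.167 when week 1, 3 or 4 was left out (0.00785 to 0.167 over its 16 alternatives). Khk had 0.0729 without week 1 and 0.0835 without week 4 (0.00872 to 0.0886 over 16 alternatives), and Hk1 had 0.0967 without week 1 and 0.105 without week 3 (0.0198 to 0.105 over 16 alternatives). Quantile normalization ended the calls of Slc2a2, Khk and Hk1.

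**Figure D2:**
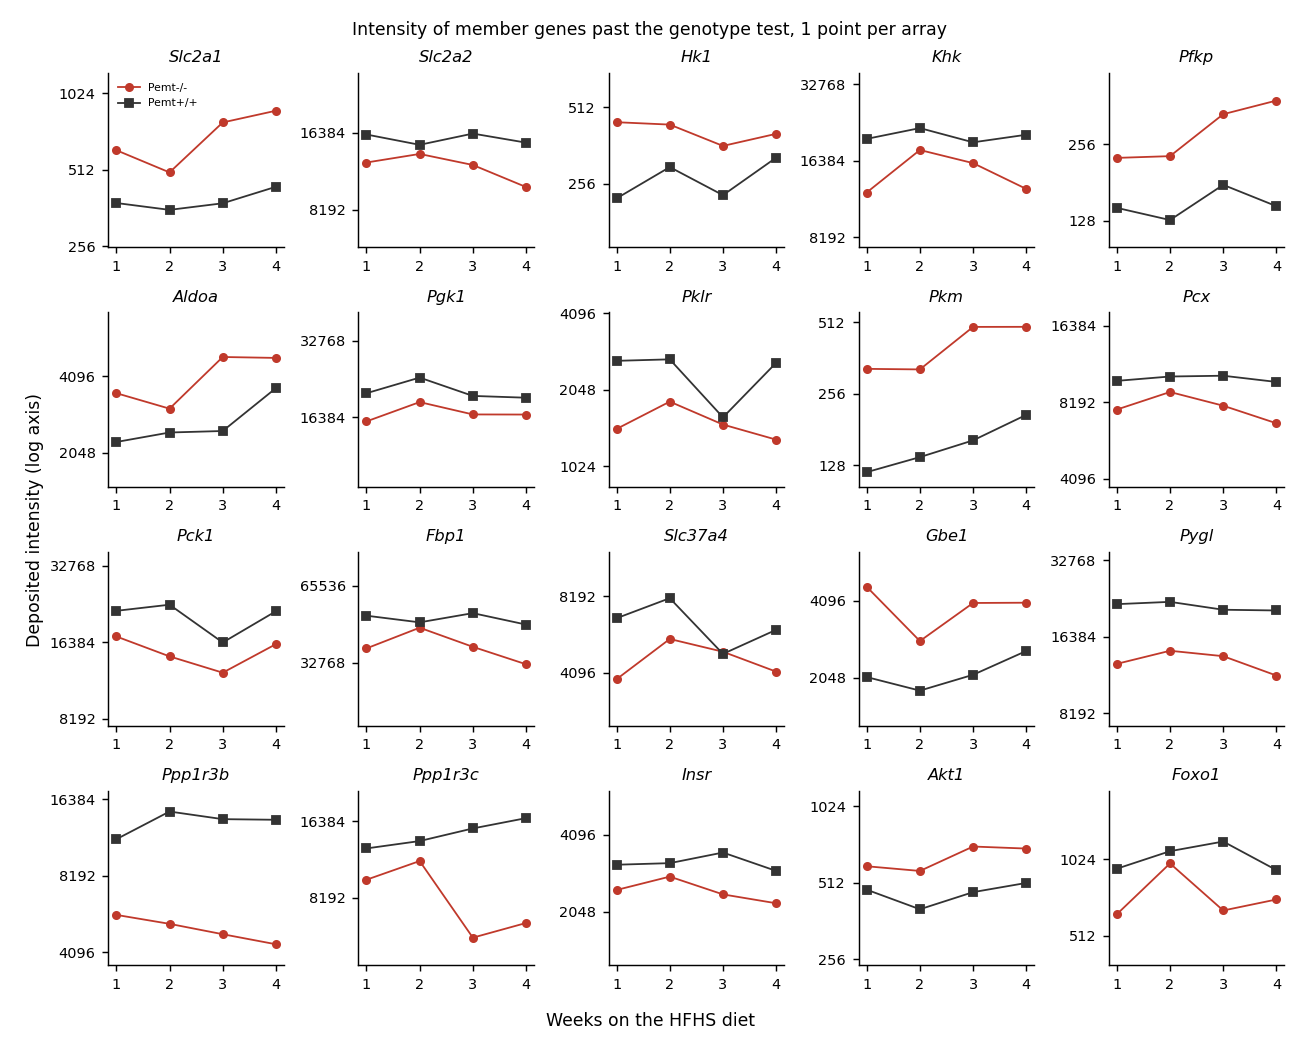
Deposited intensity (log axis) plotted by week of the HFHS diet for the 20 genes with a probe set past the threshold, with red circles for Pemt-/- and black squares for Pemt+/+, and 1 array per point. Each panel shows the lead probe set, except Slc2a1, which shows the probe set that passed. Ppp1r3b, Pygl and Khk lie below the wild type in every week, and Pkm, Pfkp and Gbe1 lie above it.

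In glycolysis, the liver pyruvate kinase gene Pklr was lower and Pkm, Pfkp and Aldoa were higher. Of the 9 genes measured, 3 were higher and 2 were lower, with a median difference of 0.06. The shares over all genes tested were 12.6% higher and 7.51% lower. Pklr and Pkm encode the enzymes of the last step, in which phosphoenolpyruvate becomes pyruvate. Pkm (1417308_at) was 326, 324, 489 and 490 in Pemt-/- and 120, 138, 163 and 209 in Pemt+/+. Every knockout array was higher than every wild-type array, and both genotypes had their higher values in weeks 3 and 4. The difference was 1.29 ± 0.14 (adjusted p = 0.00135, limma), and the ratio between the genotypes was 2.72, 2.34, 3.01 and 2.35 in weeks 1 to 4. The lead probe set of Pklr (1438711_at) was 1437, 1840.3, 1495 and 1304 in Pemt-/- and 2663, 2699, 1596 and 2617 in Pemt+/+, so the groups overlapped only through the low wild-type array of week 3. It was 1.55-fold lower (-0.63 ± 0.15, adjusted p = 0.0233, limma). A second Pklr probe set (1421258_a_at) was 464, 559, 508 and 429 in Pemt-/- and 981, 913, 784 and 1149 in Pemt+/+. It had no overlap and was 1.91-fold lower (-0.94 ± 0.15, adjusted p = 0.00488, limma), while the third had separate groups and did not pass (-0.59 ± 0.19, adjusted p = 0.0646, limma).

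Phosphofructokinase commits fructose 6-phosphate to glycolysis. Pfkp, its platelet form, measured 226, 229.7, 336 and 379.9 in Pemt-/- and 144, 129, 177 and 146 in Pemt+/+ (1416069_at). The groups did not overlap, and Pfkp was 1.84-fold higher (0.88 ± 0.17, adjusted p = 0.00989, limma). A dimmer Pfkp probe set (1437759_at) had overlapping groups and did not pass (0.05 ± 0.31, adjusted p = 0.94, limma). The 3 probe sets of Pfkl, the liver form, did not pass, with differences of 0.15, -0.15 and 0.12. Aldoa, the aldolase of muscle and many other cells, has 5 probe sets, all of a kind whose probes can match other transcripts too. The lead one (1416921_x_at) was 3519.9, 3059, 4884 and 4844 in Pemt-/- and 2262, 2465, 2499 and 3686 in Pemt+/+. It was 1.49-fold higher (0.57 ± 0.12, adjusted p = 0.0148, limma), and the wild-type array of week 4 lay among the knockout values. On 1434799_x_at the values were 2780.0, 2343, 3619 and 4187 against 1542, 1559, 1754 and 2339, with no overlap and a 1.77-fold difference (0.82 ± 0.10, adjusted p = 0.00197, limma). Another Aldoa probe set was higher by 0.35 ± 0.10 (1439375_x_at, adjusted p = 0.0389, limma) and the last 2 did not pass.

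Pgk1, which makes the first ATP of glycolysis, was lower on its lead probe set (1438640_x_at), at 15780.0, 18798, 16808 and 16791 in Pemt-/- and 20368, 23468, 19878 and 19557 in Pemt+/+. This probe set is of the same kind as those of Aldoa, whose probes can match other transcripts too. The groups did not overlap (-0.29 ± 0.08, adjusted p = 0.0414, limma), but the other probe sets of Pgk1 gave -0.19 ± 0.08 and 0.24 ± 0.10 and did not pass. Tpi1, which interconverts the triose phosphates, had differences between -0.04 and 0.00 on 3 probe sets and did not pass. Pgam1 (0.06 ± 0.11) and Ldha, which makes lactate (-0.18 ± 0.09), did not pass, and Ldha did without week 2 (-0.27, adjusted p = 0.0486, with 0.0486 to 0.599 over its 16 alternatives). The Pklr lead probe set had an adjusted p of 0.0991 without week 1 and 0.107 without week 4 (0.0100 to 0.107 over 16 alternatives). That of Aldoa had 0.0610 without week 1 and 0.0837 without week 3 (0.00972 to 0.0837 over 15 alternatives), and that of Pfkp had 0.0528 without week 4 (0.00776 to 0.149 over 16 alternatives). Aldoa 1439375_x_at had 0.102, 0.149 and 0.151 without week 1, 3 or 4 (0.0319 to 0.203 over 13 alternatives), and Pgk1 had 0.122, 0.166 and 0.127 without the same weeks (0.0175 to 0.530 over 15 alternatives). Quantile normalization ended the calls of Pgk1 and of this Aldoa probe set. Taking the mean of the probe sets of a gene ended those of Pfkp and Pgk1. On the arrays where Pkm, Pfkp and Aldoa were higher, so were the macrophage, stellate cell and proliferation markers given above, and their part was not tested.

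Gluconeogenesis and glucose release was the most one-sided group, with 4 of 6 genes lower and 0 higher and a median difference of -0.37. Over all genes tested, 7.51% were lower and 12.6% higher. The falls were modest, from 1.29-fold to 1.38-fold. Pck1 encodes cytosolic phosphoenolpyruvate carboxykinase, which turns oxaloacetate into phosphoenolpyruvate, and its promoter is shown above. It measured 17269, 14419, 12439 and 16110.0 in Pemt-/- and 21781, 23024, 16351 and 21705 in Pemt+/+ (1423439_at). In each week the knockout was lower, but the wild-type array of week 3 fell among the knockout values (-0.46 ± 0.09, 1.37-fold lower, adjusted p = 0.0104, limma). The 2 dimmer Pck1 probe sets gave -0.39 ± 0.14 and -0.61 ± 0.35 and did not pass.

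Pcx encodes pyruvate carboxylase, the entry of pyruvate into gluconeogenesis. It was 7667, 8988, 7939 and 6772 in Pemt-/- and 9942, 10342, 10416 and 9845 in Pemt+/+ (1416383_a_at), with no overlap (-0.38 ± 0.09, adjusted p = 0.0230, limma). Fbp1, fructose-1,6-bisphosphatase, was 37229, 44908, 37768 and 32250.0 in Pemt-/- and 50065, 47138, 51241 and 46196 in Pemt+/+ (1448470_at). The groups were separate, with the closest values in week 2 (-0.36 ± 0.10, adjusted p = 0.0338, limma). Slc37a4 carries glucose 6-phosphate into the endoplasmic reticulum, where glucose is freed. It was 3864, 5562, 4955 and 4138 in Pemt-/- and 6713, 8049, 4860.1 and 6045 in Pemt+/+ (1417042_at), and the wild-type array of week 3 lay among the knockout arrays (-0.46 ± 0.13, adjusted p = 0.0455, limma). G6pc, the catalytic subunit that frees the glucose, was 9242 to 13538 in Pemt-/- and 10934 to 17285 in Pemt+/+ and did not pass (-0.33 ± 0.11, adjusted p = 0.0886, limma), but did without week 2 (-0.45, adjusted p = 0.0148, with 0.0148 to 0.343 over its 16 alternatives). The 5 probe sets of Ppargc1a, a coactivator induced by fasting, did not pass, with differences from -0.43 to 0.08.

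Leaving out 1 week ended each of the 4 calls in this group at least once. The adjusted p of Pck1 was 0.0581 without week 3 (0.00502 to 0.0954 over 16 alternatives). Pcx had 0.0696, 0.122 and 0.131 without week 1, 3 or 4 (0.0105 to 0.131 over 16 alternatives), and Fbp1 had 0.119, 0.174 and 0.159 without the same weeks (0.00273 to 0.966 over 16 alternatives). Slc37a4 had 0.158, 0.0884 and 0.153 without week 1, 2 or 4 (0.0153 to 0.158 over 16 alternatives). Quantile normalization ended all 4 calls and left Fbp1 with a difference of 0.00498. The hepatocyte markers were lower on the same arrays by a median of -0.42, against -0.37 for this group, and their part was not tested.

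The glycogen genes held the largest falls. Ppp1r3b, Ppp1r3c and Pygl were lower, Gbe1 was higher, and Ugp2 and Gys2 did not pass, with a median difference of -0.47 over the 6 genes. The hepatocyte markers were lower on the same arrays (median -0.42), and their part was not tested. Ppp1r3b and Ppp1r3c encode targeting subunits that bring protein phosphatase 1 to the glycogen particle, where it activates glycogen synthase and turns off phosphorylase. Ppp1r3b (1436590_at) was 5737, 5291, 4816 and 4397 in Pemt-/- and 11384, 14629, 13653 and 13576 in Pemt+/+. All knockout arrays were below all wild-type arrays, and the knockout values were lower at each later week (-1.39 ± 0.11, adjusted p = 0.00053, limma). The ratio was 0.504 in week 1 and 0.362, 0.353 and 0.324 in weeks 2 to 4. Ppp1r3c (1433691_at), whose promoter with an E-box is shown above, was 9649, 11430.0, 5710.4 and 6523 in Pemt-/- and 12812, 13698, 15356 and 16858 in Pemt+/+. The groups did not overlap, and most of the gap came from weeks 3 and 4, with ratios of 0.753, 0.834, 0.372 and 0.387 (-0.87 ± 0.20, 1.82-fold lower, adjusted p = 0.0197, limma). Its dimmer probe set (1425631_at) was 669, 490.1, 280.6 and 257 in Pemt-/- and 729.7, 1059.8, 769 and 874 in Pemt+/+. It was 2.11-fold lower with no overlap (-1.08 ± 0.23, adjusted p = 0.0152, limma).

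Pygl encodes the liver glycogen phosphorylase, which releases glucose 1-phosphate from glycogen. It measured 12836, 14452, 13760.0 and 11547 in Pemt-/- and 22043, 22505, 20953 and 20817 in Pemt+/+ (1417741_at), with no overlap and a narrow spread in both groups (-0.72 ± 0.08, 1.65-fold lower, adjusted p = 0.00157, limma). Gbe1, the branching enzyme, went the other way. It measured 4659, 2849.8, 4023 and 4033 in Pemt-/- and 2057, 1819, 2099.5 and 2605 in Pemt+/+ (1420654_a_at), so the groups did not overlap and it was 1.79-fold higher (0.84 ± 0.12, adjusted p = 0.00262, limma). The 5 probe sets of Ugp2, which makes UDP-glucose for glycogen synthesis, lay between -0.04 and 0.10 and did not pass. Gys2, the liver glycogen synthase, was 3014 to 4179.7 in Pemt-/- and 3877 to 4856 in Pemt+/+ (-0.23 ± 0.09, adjusted p = 0.141, limma). The calls of Ppp1r3b, Pygl and Gbe1 held in all 16 alternatives run for each. That of Ppp1r3c had an adjusted p of 0.0920 without week 3 and 0.0796 without week 4 on the lead probe set (0.00696 to 0.0920 over 16 alternatives), and 0.0721 and 0.0607 on the other (0.00776 to 0.0721 over 14 alternatives).

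In the insulin response group, 1 of 6 genes was higher and 2 were lower, with a median difference of -0.00. Among all genes tested, 12.6% were higher and 7.51% lower. Insr, the insulin receptor, was 2489.7, 2809.9, 2392 and 2207 in Pemt-/- and 3129, 3174, 3495 and 2959 in Pemt+/+ (1434446_at). The groups did not overlap (-0.37 ± 0.10, 1.29-fold lower, adjusted p = 0.0369, limma), and the 2 dim Insr probe sets lay near 0 (-0.00 and -0.05) and did not pass. Foxo1, the transcription factor that drives gluconeogenic genes and is held out of the nucleus by Akt, was 622, 986, 644 and 711 in Pemt-/- and 939.7, 1101, 1202 and 928 in Pemt+/+ (1416983_s_at). The knockout array of week 2 lay among the wild-type values (-0.50 ± 0.14, adjusted p = 0.0397, limma). Another Foxo1 probe set (1416981_at) was 548 to 584 in Pemt-/- and 690.2 to 797 in Pemt+/+, with no overlap (-0.38 ± 0.11, adjusted p = 0.0487, limma). A dimmer Foxo1 probe set (1416982_at) had overlapping groups and did not pass (-0.11 ± 0.15, adjusted p = 0.663, limma).

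Akt1, a kinase that carries the insulin signal in most cells, was 593, 569, 709.6 and 697 in Pemt-/- and 480.02, 402, 469 and 510.3 in Pemt+/+ (1416657_at). The groups were separate (0.45 ± 0.12, 1.37-fold higher, adjusted p = 0.0334, limma), but a dimmer Akt1 probe set was separate in the opposite direction and did not pass (1440950_at, -0.40 ± 0.15, adjusted p = 0.117, limma). A still dimmer Akt1 probe set had overlapping groups and did not pass (1425711_a_at, 0.38 ± 0.23, adjusted p = 0.295, limma). Akt2, the Akt form of liver and fat, did not pass on any of 3 probe sets (-0.14 to 0.01). Irs1 (-0.02 ± 0.12) and Irs2 (0.02 ± 0.29), the docking proteins of the receptor, did not pass, and Irs2 spread from 282 to 655 in Pemt-/- and from 247 to 553 in Pemt+/+. Without week 1, 3 or 4 the adjusted p of Insr was 0.0831, 0.198 or 0.15 (0.0147 to 0.396 over 16 alternatives) and that of the Foxo1 lead probe set 0.117, 0.191 or 0.0959 (0.0165 to 0.191 over 15 alternatives). Leaving out week 1, 2, 3 or 4 gave 0.0553, 0.0628, 0.159 or 0.121 for Akt1 (0.0241 to 0.437 over 16 alternatives) and 0.0834, 0.0855, 0.192 or 0.164 for the second Foxo1 probe set (0.0131 to 0.192 over 14 alternatives). Quantile normalization ended the call of Akt1. Taking the mean of the probe sets of a gene ended the calls of Insr, Foxo1 and Akt1.

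**Figure D3:**
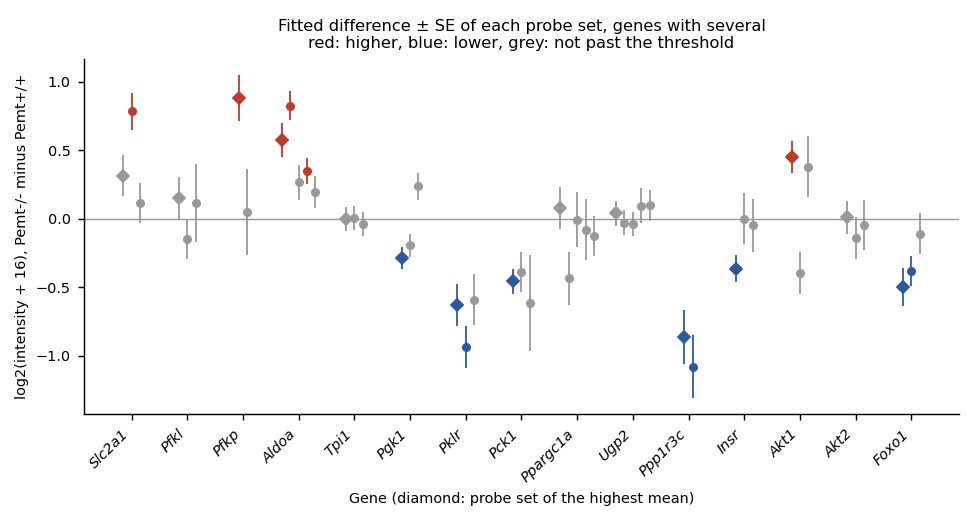
Fitted difference ± SE, in log2(intensity + 16) of Pemt-/- minus Pemt+/+, for each tested probe set of the genes with several, with diamonds for the lead probe set. Red and blue mark probe sets higher and lower past the threshold and grey those that did not pass; the Tpi1 and Ugp2 probe sets lie near 0, while those of Slc2a1, Aldoa, Pgk1 and Akt1 spread apart.

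The next question was how the differences ran over the weeks. Each week had 1 array per genotype, so these values have no test within a week. The median difference of the 33 lead probe sets was -0.32, -0.04, -0.17 and -0.30 in weeks 1 to 4, with 21, 17, 19 and 23 genes below 0, and over all genes it was 0.03, 0.01, 0.03 and 0.03. These medians hold genes that differed in both directions. The gluconeogenesis group had medians of -0.35, -0.14, -0.39 and -0.53 and the glycogen group of -0.37, -0.21, -0.33 and -0.61, so both were nearest to 0 in week 2 and lowest in week 4. The median of the 12 hepatocyte markers was -0.40, -0.21, -0.52 and -0.44, also nearest to 0 in week 2, and its part was not tested. The knockout array of week 2 had the lowest median intensity of all arrays, 73.8, and the lowest upper quartile of its genotype, 384. The part of this array difference was not tested. The medians of the sugar entry group were -0.08, 0.00, 0.11 and -0.27, those of glycolysis 0.12, 0.17, 0.01 and -0.05, and those of the insulin response -0.33, 0.28, -0.37 and -0.18.

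At a ratio of 2 or more between the deposited intensities, 3, 4, 4 and 4 of the 71 member probe sets were up in weeks 1 to 4, against 13.3%, 13.4%, 14.4% and 15.9% of all 45037 probe sets. At 0.5 or less, 1, 4, 8 and 7 were down, against 14.2%, 14.9%, 15.9% and 14.6%. The 45037 probe sets include the dim ones left out of the tests, and only 4 of the 71 member probe sets were among those. The shares are therefore over sets of unlike brightness. Among the probe sets past the genotype test, Pkm was up in all 4 weeks, and Slc2a1 (1426599_a_at) and Aldoa (1434799_x_at) in week 3. Pfkp was up in week 4 and Gbe1 in week 1. Ppp1r3b was down in weeks 2, 3 and 4. The lead probe set of Ppp1r3c was down in weeks 3 and 4, and its dimmer one (1425631_at) in week 2 as well. For Pklr, the lead probe set was down in week 4, and 1421258_a_at in weeks 1 and 4.

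The change per week was then fitted in each genotype. No member passed for the difference in change per week (0 adjusted, 3 at an unadjusted p under 0.05, limma), and over all probe sets tested 0 passed and 6.73% had an unadjusted p under 0.05. The 3 probe sets were those of Ppp1r3b, with a slope lower by -0.19 ± 0.08 per week in the knockout (adjusted p = 0.707, limma), and of Ppp1r3c, lower by -0.40 ± 0.13 (adjusted p = 0.648, limma) and -0.51 ± 0.13 (adjusted p = 0.563, limma). Within Pemt-/-, 0 member probe sets passed and 11 had an unadjusted p under 0.05 (10.3% of all probe sets, of which 0.104% passed, limma). Within Pemt+/+, 0 member probe sets passed and 5 had an unadjusted p under 0.05, 4 of them of Aldoa and 1 of Pkm (5.45% of all probe sets, limma). The slope of Pkm was 0.23 ± 0.09 per week in Pemt-/- and 0.24 ± 0.09 in Pemt+/+, and that of the Aldoa lead probe set 0.20 ± 0.08 and 0.21 ± 0.08, so both genes had like slopes in the 2 genotypes and none passed after adjustment.

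Related genes were also set against each other within each array, as a difference of log2(intensity + 16) between lead probe sets. These ratios are a description and have no test, and each was set to a wild-type mean of 0 on the log2 scale. Pkm over Pklr was 1.70, 1.34, 2.21 and 2.41 in Pemt-/- from week 1 to week 4 and -0.51, -0.34, 0.62 and 0.24 in Pemt+/+. The groups did not overlap, and the mean difference was 1.92 (SD 0.48 and 0.52, n = 4). Pfkp over Pfkl was 0.42, 0.40, 1.11 and 0.98 in Pemt-/- and -0.05 to 0.02 in Pemt+/+, also with no overlap (mean difference 0.73, SD 0.37 and 0.03, n = 4). Slc2a1 over Slc2a2, by the lead probe sets, was 0.37, 0.01, 0.87 and 1.49 in Pemt-/- and -0.20 to 0.12 in Pemt+/+, and the groups overlapped at week 2. Hk2 over Hk1 overlapped throughout (mean difference -0.03, SD 0.46 and 0.44, n = 4). Ppp1r3c over Ppp1r3b was 0.61, 0.97, 0.11 and 0.43 in Pemt-/- and -0.23 to 0.17 in Pemt+/+, with an overlap through week 3 of the knockout.

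**Figure D4:**
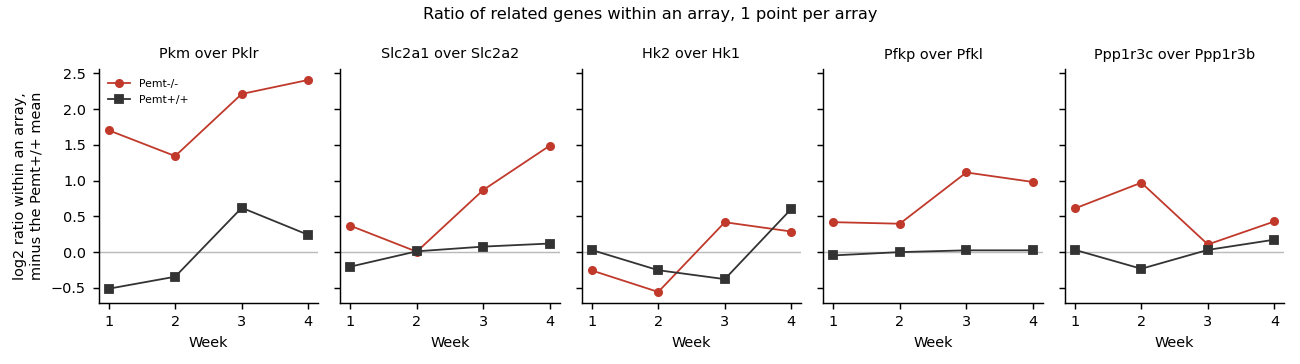
Log2 ratio of related genes within an array, minus its mean over the 4 Pemt+/+ arrays, against week, with red circles for Pemt-/- and black squares for Pemt+/+ and 1 point per array. Pkm over Pklr, Pfkp over Pfkl and Ppp1r3c over Ppp1r3b lie above the wild type of the same week in every week. The ranges of Ppp1r3c over Ppp1r3b overlap, and Hk2 over Hk1 crosses the wild type.

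Other genes of the pathway, listed by role, were read from the same fit, and of 82 tested 12 were higher (14.6%) and 9 lower (10.98%), with a median difference of 0.04. Over all genes tested the shares were 12.6% and 7.51%, so the counts of these lists lay near the background. In glycolysis and fructose use, 4 of 17 were higher and 1 was lower. Slc16a1, the monocarboxylate carrier MCT1, was 11009 ± 1760 (SD, n = 4) in Pemt-/- and 6816 ± 1111 in Pemt+/+ (0.69 ± 0.09, adjusted p = 0.00197, limma), Hk3, a hexokinase of white blood cells, was higher by 0.88 ± 0.17 and Pfkfb3, which makes the activator fructose 2,6-bisphosphate, by 0.96 ± 0.19. Aldoc, the aldolase of brain, was lower by -0.96 ± 0.13 (adjusted p = 0.00243, limma). In pyruvate use and gluconeogenesis, 1 of 18 was higher and 2 were lower. Pck2, the mitochondrial form of phosphoenolpyruvate carboxykinase, was 615 ± 198 in Pemt-/- and 198 ± 40.05 in Pemt+/+ (SD, n = 4), 2.88-fold higher (1.53 ± 0.24, adjusted p = 0.00424, limma), opposite to Pck1. Mdh1, cytosolic malate dehydrogenase, was lower by -0.56 ± 0.08 and Pdk2, which inhibits pyruvate dehydrogenase, by -0.71 ± 0.16.

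In the list kept for glycogen, which also holds genes with other roles such as Pgm2 and Pgm3, 4 of 17 were higher and 2 were lower (Pgm1 and Phkg2). Pygb, the brain form of glycogen phosphorylase, was 479 ± 82.7 in Pemt-/- and 232 ± 48.6 in Pemt+/+ (SD, n = 4) and rose by 2.00-fold (1.00 ± 0.14, adjusted p = 0.00295, limma), opposite to Pygl. Gyg, the primer of glycogen, was higher by 0.99 ± 0.18, Pgm3 by 0.89 ± 0.18 and Pgm2 by 0.81 ± 0.19. In the pentose phosphate pathway, 0 of 7 were higher and H6pd was lower (-0.46 ± 0.12, adjusted p = 0.0300, limma). Among 23 genes of insulin and glucagon signalling and its transcription factors, 3 were higher and 3 lower. Trib3, an inhibitor of Akt that is also induced by cell stress, was 879 ± 523 in Pemt-/- and 163 ± 49.6 in Pemt+/+ (SD, n = 4), 4.64-fold higher (adjusted p = 0.00253, limma). Igfbp1, a secreted protein that insulin represses, was 2.52-fold higher (adjusted p = 0.00688, limma). Mlxipl, which encodes the carbohydrate-responsive factor ChREBP, was 3821 ± 801 in Pemt-/- and 5809 ± 883 in Pemt+/+ (SD, n = 4), 1.53-fold lower (adjusted p = 0.00805, limma), with no overlap between the groups. Creb3l3, a factor active in fasted liver, was lower by -0.36 ± 0.08.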

How the data were processed

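Liver RNA was measured on 8 Affymetrix arrays, grouped by the genotype and week in the labels. The values were the probe set intensity on a linear scale, as deposited by the authors; Affymetrix Expression Console is credited in the submitters' processing notes, without a version or summarisation method (not given in the sources used here). Leaving out 2% of the values at each end, every array had a mean intensity of 500.0, which is how the authors had scaled them. The median ran from 73.8 to 81.3, and the upper quartile from 384 to 425 in Pemt-/- and from 363 to 370.4 in Pemt+/+. Precision is limited by the number of arrays.

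After 64 control probe sets were left out, 45037 remained, of which 34945 had a single gene in the annotation table. Probe sets with a mean of log2(intensity + 16) above the 40th percentile (27022) were fitted in limma 3.58.1 (R 4.3.3; lmFit, eBayes with an intensity trend) on week as a factor and genotype, as the study set genotypes side by side per week. Two-sided p-values were adjusted by Benjamini-Hochberg over all probe sets, with 0.05 as threshold. Slopes were fitted with week as a number within genotype. Fold changes are on the log2(intensity + 16) scale and understate changes of dim probe sets; SD is over the 4 arrays of a genotype and includes change between weeks. Residual degrees of freedom were 3, and the prior added 5.67. The scripts were tested on simulated data.

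The genes and lists were chosen with earlier results of these data known. Values on each array are given for every member past a threshold of the genotype difference, and the further lists are given by counts and by the mean or fitted difference of up to 4 genes with the smallest p. Alternatives were quantile normalization, median centring, pseudocounts of 1 and 64, other filters, eBayes without trend, 1 probe set or the mean per gene, no week in the model and leaving out each week; leaving out probe sets with names in _x_at or _s_at, and centring over the probe sets tested, were chosen after seeing the data.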

Additional observations from a re-analysis of the deposited data

Results flagged for a closer look

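Among 78 groups of 4 arrays looked at (the lead and called probe sets of the genes above in each genotype), 2 held an array that stood apart from the other 3, with a gap beyond the 95% critical value of Dixon's test. Chance flags about 1 in 20 groups. The Aldoa probe set 1416921_x_at measured 3686 in Pemt+/+ at week 4, against 2262 to 2499 on the other wild-type arrays, and without that week the genotype difference was 0.64 (adjusted p = 0.0386, limma, with 0.00972 to 0.0837 over its 15 alternatives). The Pklr probe set 1438711_at measured 1596 in Pemt+/+ at week 3, against 2617 to 2699 on the other wild-type arrays, and without that week Pklr was lower by -0.81 (adjusted p = 0.0154, limma, with 0.0100 to 0.107 over its 16 alternatives). No explanation of either value was tested.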

How the results depend on the processing

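Calls of 7 probe sets held in each alternative run for them. Pkm, Gbe1, Pygl and Ppp1r3b had 16 alternatives, Slc2a1 1426599_a_at and Pklr 1421258_a_at had 14, and Aldoa 1434799_x_at had 13. The lead probe set of Slc2a1 did not pass in any of its 16 (adjusted p 0.0574 to 0.608, limma). Against 6 genes higher and 13 lower, there were 4 and 6 after quantile normalization, 6 and 7 with median centring, 6 and 8 without a filter, 3 and 2 by eBayes without trend (Pkm, Pfkp and Gbe1, and Pygl and Ppp1r3b), 4 and 10 with the mean of probe sets and 5 and 12 without _x_at and _s_at probe sets. Without 1 week, 3 to 5 were higher and 3 to 15 lower. Over the array, 4372 probe sets passed, 2348 without trend, and 1818 to 4793 without 1 week (2868 without week 1, 1818 without week 3, 2040.0 without week 4). No member passed the test of the difference in change per week in the alternatives run.

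The deviations of same-week arrays correlated at 0.10, -0.02, -0.03 and 0.11 in weeks 1 to 4, so beyond the week of the diet, which the same number marks, not every pair deviated together. The knockout arrays of weeks 1 and 4, but not those of weeks 2 and 3, correlated best with the wild-type array of their own week. Without the replicate block (no week in the model), 5 genes were higher and 12 lower, and 4619 probe sets passed.

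After quantile normalization the sign turned for Fbp1 (0.00498), which had been called, and for Pfkl (-0.00179), Tpi1 (0.18), Ldha (0.12), Ppargc1a (-0.063), Irs2 (-0.13) and Akt2 (-0.058), which had not. It turned with median centring for Tpi1 (0.00958), with the mean of probe sets for Ppargc1a (-0.11) and Akt2 (-0.058), and with centring over the probe sets tested for Pfkl (-0.00467), Pgam1 (-0.097), Ppargc1a (-0.076), Ugp2 (-0.12), Irs2 (-0.14) and Akt2 (-0.15). Leaving out 1 week turned Tpi1 (-0.060 to 0.062), Pgam1 (-0.033 to 0.14), Ppargc1a (-0.083 to 0.16), Ugp2 (-0.025 to 0.10), Irs2 (-0.43 to 0.23), Akt2 (-0.093 to 0.12) and Irs1 (-0.11 to 0.098). None of these passed. The cause was not tested.

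Ratios of intensity + 16 left 2 probe sets at 2 or more in weeks 2 and 4 and 2 at 0.5 or less in week 2, and the filter left 2 at 0.5 or less in week 2 and 5 in week 3.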
